A study of Mus musculus with 18 samples.

Results

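The genes described here are 10 genes of the carnitine shuttle and of mitochondrial beta-oxidation: Cpt1a, Cpt2, Slc25a20, Acadm, Acadl, Acadvl, Hadha, Hadhb, Acaa2 and Etfdh. They were chosen by symbol for their place in the pathway, and all 10 were found among the 54347 genes of the count table. All 10 also passed the filter on low counts, so none is missing from the values below. Leukemia stem cells (7000 per mouse) were sorted from the marrow of 9 C57BL/6JRj mice, 30 days after induction of leukemia, and their RNA was sequenced. The genotypes were Prx1-Cxcl12-mutant (5 mice, numbered 6, 7, 8, 10 and 12, called mutant here) and Prx1-Cxcl12-wild type (4 mice, numbered 1 to 4, called control), and every mouse of both groups carried leukemia. Each mouse gave 2 technical libraries of 3' ends, which were summed, so that n counts mice. Prx1 (Prrx1) marks mesenchymal cells, among them stromal cells of the marrow, and Cxcl12 encodes the chemokine by which such cells hold blood stem cells, so the mutation is aimed at niche cells, which are not the cells sorted here. The labels do not state the allele that drives it, the oncogene, the sorting gate or the age and sex of the mice.

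Long-chain fatty acids enter mitochondria as carnitine esters. CPT1 on the outer membrane makes the acylcarnitine and is the step that malonyl-CoA inhibits, the carrier encoded by Slc25a20 moves it across the inner membrane, and CPT2 turns it back into acyl-CoA. In the matrix, acyl-CoA dehydrogenases, the trifunctional protein and thiolases shorten the chain by rounds of oxidation, and the electrons of the dehydrogenases reach ubiquinone through the electron transfer flavoprotein and its dehydrogenase, ETFDH. Fatty acid oxidation is a fuel route studied in leukemia stem cells, and the study's title names redox and energy balance as its subject.

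The start regions of the carnitine shuttle genes are shown first because the results below turn on Cpt1a beside the other members of the shuttle. The sequences are RefSeq's upstream windows on GRCm38.p6, 5′ to 3′ on the strand of the gene, cut where any annotated exon begins. That of Cpt1a lies inside the annotated gene, since another transcript starts further upstream. Capitals mark AGGTCA, the half-site of PPAR and related nuclear receptors, on either strand.
Cpt1a, chr19:3323051-3323284, plus strand: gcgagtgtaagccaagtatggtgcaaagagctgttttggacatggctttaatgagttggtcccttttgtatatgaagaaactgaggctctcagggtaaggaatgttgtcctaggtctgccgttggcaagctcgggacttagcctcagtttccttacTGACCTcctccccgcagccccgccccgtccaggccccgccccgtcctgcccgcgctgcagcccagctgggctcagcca
Cpt2, chr4:107923611-107923839, minus strand: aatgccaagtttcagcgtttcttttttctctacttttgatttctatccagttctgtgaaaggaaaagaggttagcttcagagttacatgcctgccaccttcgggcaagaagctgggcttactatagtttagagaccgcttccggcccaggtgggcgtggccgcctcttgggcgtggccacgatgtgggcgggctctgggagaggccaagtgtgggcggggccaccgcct
Slc25a20, chr9:108661886-108662087, plus strand: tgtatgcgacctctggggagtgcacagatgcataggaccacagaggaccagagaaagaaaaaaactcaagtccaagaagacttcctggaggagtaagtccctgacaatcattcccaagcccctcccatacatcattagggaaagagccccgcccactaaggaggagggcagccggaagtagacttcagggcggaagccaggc

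In the 250 bases before the RefSeq start, AGGTCA on either strand was found in 3 of the 9 members with an entry (Cpt1a, Acadm and Acadvl) and in 14.02% of all 32851 upstream windows. DR1, a pair of AGGTCA half-sites 1 base apart, was in none of the 9 and in 0.0335% of all windows, and TCAAGGTCA, the ERR-type site, was in none and in 0.387%. GGGCGG, the GC box, was in 6 of the 9 against 32.7% and CCAAT in 2 against 33.8%. The windows of Hadha and Hadhb overlap, and the GC box counted for Hadha is also counted for Hadhb, so the 6 are not all separate. TCAAGGTCA and DR1 each contain AGGTCA. Both strands were searched for each motif, and the NRF1-type site, searched in the same way, was in 1 of the 9 (Etfdh) and in 0.782% of all windows. A match describes these letters only.

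Hadha and Hadhb, which encode the alpha and beta subunits of the mitochondrial trifunctional protein, lie head to head, with 85 bases between the outermost annotated gene starts. The interval is shown because both genes share it and can be compared below. It is given on the plus strand, the strand of Hadhb, with capitals at GGGCGG.
Interval of Hadha and Hadhb, chr5:30155163-30155247: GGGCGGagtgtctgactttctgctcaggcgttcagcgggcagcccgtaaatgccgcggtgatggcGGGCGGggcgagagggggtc

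Total counts per mouse ran from 11766467 to 25485899, and mutant mice had the higher totals on average. The means were 15160572 ± 2307737 in controls and 20734088 ± 4170598 in mutants (SD, n = 4 and 5, 2-sided exact permutation p = 0.0476). All 15 progenitor genes used to check the label were tested, and 4 of them (Mpo, Elane, Flt3 and Prtn3) were above 0 in log2 fold change. The median over the 15 was -0.18, and none passed in edgeR. The list was led by Prtn3, at 3941 to 4795 CPM in controls and 3469 to 5573 CPM in mutants. Kit was at 23.5 to 27.4 CPM (counts scaled to library size) in controls and 16.1 to 21.8 CPM in mutants, Hoxa9 at 180.1 to 355 and 173 to 235 CPM, and Myb at 326 to 422 and 269 to 356 CPM. Kit was lower in every mutant than in any control, as were 2.13% of all tested genes, and did not pass (edgeR adjusted p = 0.254). Cxcl12 had at most 4 counts in any mouse of either group, so its level in these cells checks nothing about the niche mutation. Of 8 adipocyte genes, 5 (Adipoq, Plin1, Cidec, Lep and Retn) had 3 counts or fewer in every mouse, as had 5 of 14 stromal genes (Pdgfra, Col3a1, Prrx1, Kitl and Alpl). Adipocyte genes summed to 5.21 to 10.9 CPM in controls and 3.17 to 12.6 CPM in mutants, most of it Lpl. Stromal genes were not all near 0: they summed to 34.99 to 43.97 CPM in controls and 29.40 to 60.42 CPM in mutants, led by Vcam1. Of the 14 stromal genes, 5 were tested and none passed in edgeR. Over all 12973 tested genes, edgeR's quasi-likelihood test called 9 at a Benjamini-Hochberg adjusted p under 0.05, which is 0.0694% of them.

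Cpt1a encodes the CPT1 isoform of liver and of most non-muscle cells, and it was the member that differed most between the groups. Its level was 8.77, 12.4, 7.76 and 9.42 CPM in controls 1, 2, 3 and 4. In mutants 6, 7, 8, 10 and 12 it was 17.6, 13.7, 16.5, 17.01 and 12.04 CPM. All 5 mutants were above the control mean and 4 of the 5 were above the highest control, and the groups overlapped only through control 2 and mutant 12. Behind these levels stood 111 to 396 counts per mouse.

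The means of Cpt1a were 9.59 ± 2.00 CPM in controls and 15.4 ± 2.39 CPM in mutants (SD, n = 4 and 5). The fold change from the edgeR model was 1.599 (95% interval 1.25 to 2.04). The log2 fold change was 0.68 (SE 0.16, 95% interval 0.32 to 1.03). Its unadjusted p was 0.00121 and its adjusted p over all genes was 0.216 in edgeR, so it did not pass, and 71 of the 12973 genes had a smaller p. DESeq2 gave nearly the same log2 fold change, 0.67, with an adjusted p of 0.0222, and so called Cpt1a among 93 genes (0.777% of those it adjusted). The edgeR test found 0 of the 10 members at an adjusted p under 0.05, limma-voom found 0 and DESeq2 found 1. At an unadjusted p under 0.05 edgeR counted 1 of 10, Cpt1a, where 9.85% of all genes were past that threshold.

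**Figure D1:**
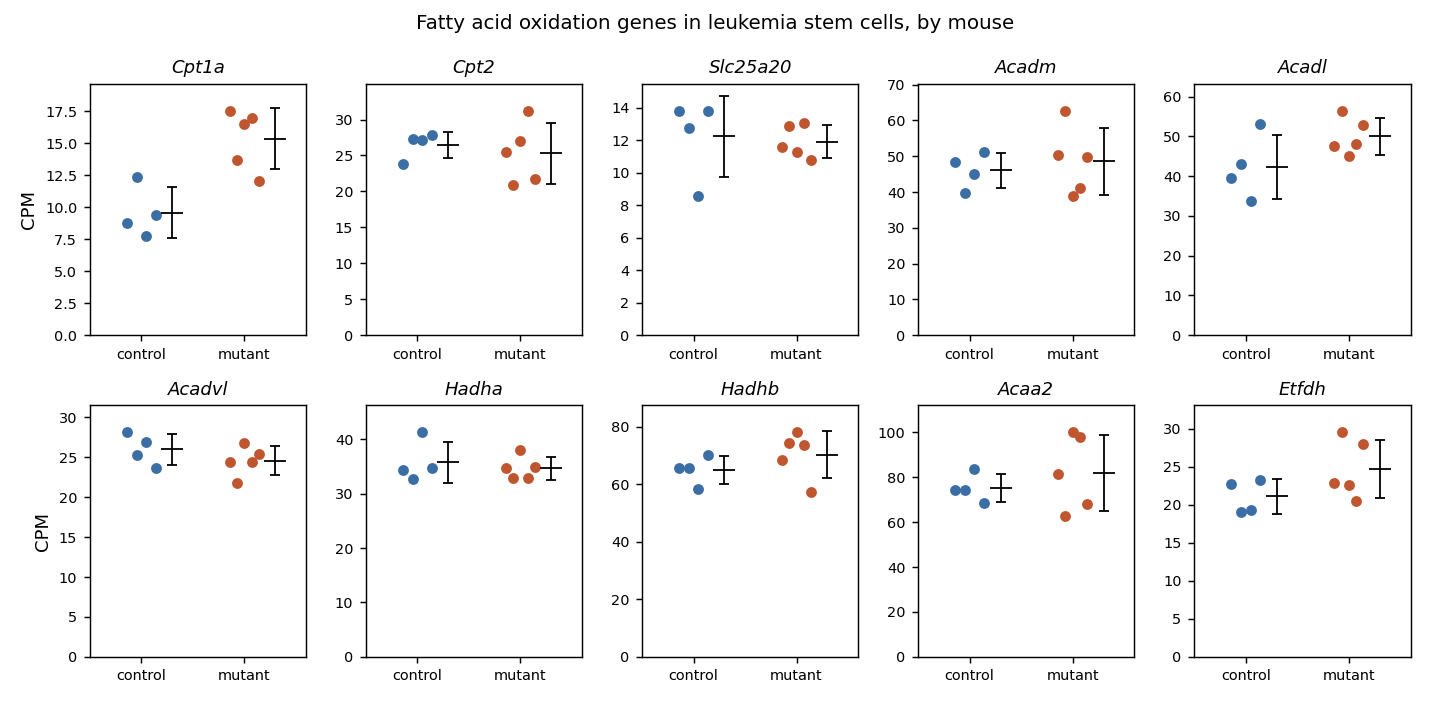
CPM of the 10 members in each mouse (vertical axes, each from 0), with controls in blue and mutants in orange. Each point is a mouse, and the bars beside the points give the mean ± SD (n = 4 and 5). Of the 5 mutants, 4 lie above every control for Cpt1a, while the groups overlap for each member.

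The difference in Cpt1a was present in both sets of technical libraries. The first libraries alone gave a log2 fold change of 0.59 (SE 0.21) and the second libraries alone 0.76 (SE 0.20). Libraries of a mouse differed about as much as mice did: the SD between the libraries of a mouse was 0.28 on the log2 scale, against 0.26 between summed mice within a group. The largest gap within a mouse was in control 2, whose first library had 15.8 CPM and whose second had 9.96 CPM. Control libraries spanned 6.68 to 15.8 CPM and mutant libraries 10.7 to 18.6 CPM, and 5 of the 10 mutant libraries were above the highest control library. Without control 2 the log2 fold change was 0.83 (SE 0.16, edgeR adjusted p = 0.183), and without mutant 12 it was 0.75 (SE 0.16, edgeR adjusted p = 0.154). The groups overlapped through these 2 mice, so leaving out either was bound to widen the difference. Over the 9 fits that each left out 1 mouse, the log2 fold change of Cpt1a ran from 0.59 to 0.83. The edgeR adjusted p ran from 0.154 to 0.424.

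Depth and some other genes moved with the groups beside Cpt1a. Mutant 12, the mutant with the lowest Cpt1a, had a total count of 15959029, within the range of the controls, and controls 2 and 4 had 16784991 and 16400645. When the log2 total entered the model, the Cpt1a log2 fold change was 0.56 (SE 0.22, edgeR unadjusted p = 0.0274, adjusted p = 0.982), and after thinning every mouse to the smallest total it was 0.62 (SE 0.16, edgeR adjusted p = 0.281). Of 10 erythroid genes, none was at 3 counts or fewer in every mouse, and 7 were tested. All 7 were higher on average in mutants, with a median log2 fold change of 0.88 and a summed level of 6.81 to 52.9 CPM in controls and 17.7 to 61.4 CPM in mutants, and none of the 7 passed. Car2, the carbonic anhydrase gene, was at 0.237 to 1.54 CPM in controls and 2.67 to 4.02 CPM in mutants (edgeR adjusted p = 0.116). Itga2b, a megakaryocyte marker, fell from 2.02 to 3.08 CPM in controls to 0.380 to 1.01 CPM in mutants (edgeR adjusted p = 0.0427) and was the 1 marker of another cell type that passed. Of the 8 megakaryocyte and platelet genes, 4 (Ppbp, Gp1ba, Gp6 and Treml1) had 3 counts or fewer in every mouse. The fall of Itga2b therefore does not stand for the list. Of the 3 megakaryocyte genes tested, 1 was above 0: Gp9 had a log2 fold change of 0.17 (edgeR adjusted p = 0.817), and Itgb3 had -0.38 (edgeR adjusted p = 0.544). Mature neutrophil genes summed to 453 to 973 CPM in controls and 228 to 472 CPM in mutants, with 5 of 10 above 0 and a median log2 fold change of 0.04. That sum was led by Camp, at 281 to 550 CPM in controls and 75.3 to 195 CPM in mutants (log2 fold change -1.47, edgeR adjusted p = 0.115), so it mostly follows 1 gene. Of the monocyte and macrophage genes, 2 of 7 tested were above 0 (median log2 fold change -0.29), and of the mast cell and basophil genes 2 of 4 (median -0.26). B and plasma cell genes had 0 of 2 above 0, T and NK cell genes 1 of 1 and endothelial genes 0 of 1. None of the genes in these lists passed in edgeR. Mitochondrially encoded genes took 0.161% to 0.263% of counts in controls and 0.0701% to 0.234% in mutants. The part of these cell types and measures in the level of Cpt1a was not tested. In bulk RNA of sorted cells, more cells that express a gene and more RNA per cell cannot be told apart.

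**Figure D2:**
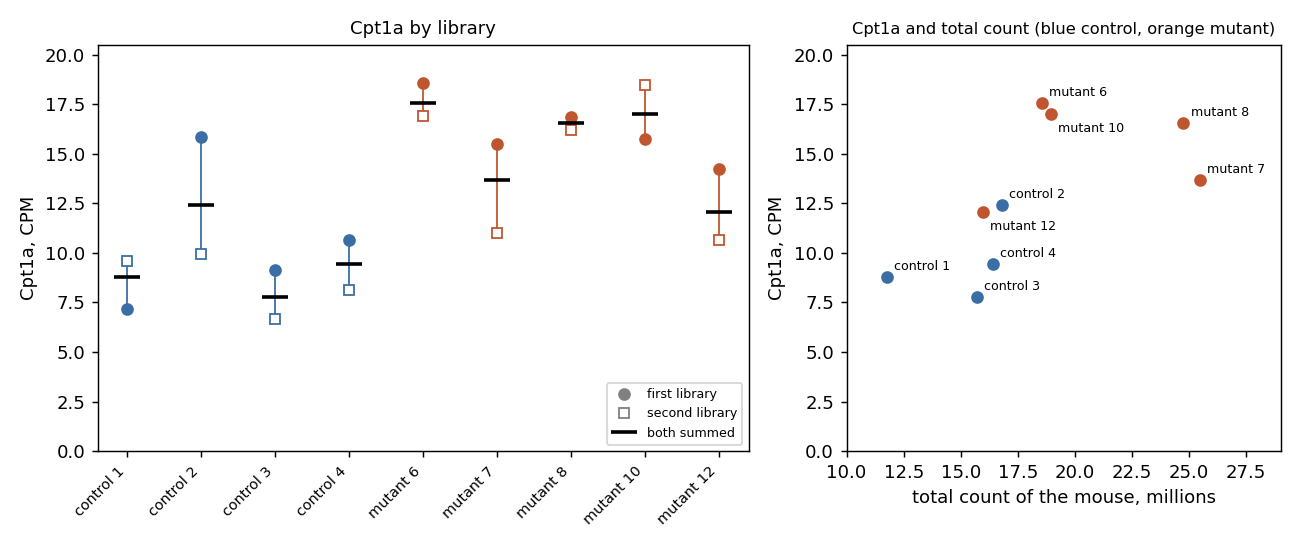
Left, Cpt1a in CPM in the first (filled) and second (open) library of each mouse, with the summed value as a black bar; right, the summed value against the total count of the mouse. Control 2 has the widest gap between libraries, 15.8 and 9.96 CPM, and mutants 7 and 8 have the highest totals.

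The other CPT1 isoforms had few 3' end counts, and counts of different genes are not scaled to each other here. Cpt1b, the muscle isoform, had 0 to 25 counts per mouse and did not pass the filter, and 6 of the 9 mice had none. Cpt1c, the brain isoform, had 9 to 26 counts per mouse, or 0.711 to 1.54 CPM in controls and 0.652 to 1.10 CPM in mutants, with a log2 fold change of -0.34 and an edgeR adjusted p of 0.739. Cpt1a had at least 111 counts in every mouse.

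The other shuttle genes had estimates close to 0. Cpt2, the inner membrane transferase, was at 23.8, 27.3, 27.1 and 27.8 CPM in controls 1 to 4. In mutants 6, 7, 8, 10 and 12 it was at 25.4, 20.9, 27.1, 31.2 and 21.7 CPM. The mutants lay on both sides of the controls, and the log2 fold change was -0.07 (SE 0.12, 95% interval -0.34 to 0.20). Slc25a20, the carnitine-acylcarnitine carrier, was at 13.8, 12.8, 8.58 and 13.8 CPM in controls and 11.6, 12.9, 11.3, 13.0 and 10.8 CPM in mutants. The mutants lay within the range of the controls, whose lowest value was that of control 3, and the log2 fold change was -0.04 (SE 0.15, 95% interval -0.36 to 0.28).

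The ratio of Cpt1a to another member within a mouse needs no scaling between libraries. The log2 ratio of Cpt1a to Cpt2 counts was -1.80 to -1.13 in controls and -0.88 to -0.53 in mutants, and that to Slc25a20 was -0.66 to -0.04 and 0.09 to 0.60. The groups did not overlap for these 2 of the 9 ratios, and they overlapped for the other 7. Over all genes with counts in every mouse, 28.8% gave such a ratio with no overlap and the higher values in mutants, so it is common for a gene set against Cpt1a. Cpt1a made up 2.21% to 3.53% of the summed counts of the 10 members in controls and 3.34% to 4.57% in mutants.

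The acyl-CoA dehydrogenases take the first oxidation step, and each prefers a chain length: Acadvl very long, Acadl long and Acadm medium chains. Acadl was at 39.6, 43.2, 33.8 and 53.0 CPM in controls and 47.6, 56.5, 45.02, 48.04 and 53.0 CPM in mutants. All 5 mutants were above the control mean of 42.4 CPM, but control 4 was above every mutant except mutant 7. Its log2 fold change was 0.24 (SE 0.12, 95% interval -0.03 to 0.51, edgeR adjusted p = 0.545). Acadm was at 48.3, 39.7, 45.2 and 51.1 CPM in controls and 50.3, 62.8, 38.9, 41.2 and 49.8 CPM in mutants, with mutant 7 highest and mutant 8 lowest of all mice. Its log2 fold change of 0.08 (SE 0.14) was -0.03 without mutant 7. Acadvl stood at 23.6 to 28.1 CPM in controls and 21.8 to 26.7 CPM in mutants (-0.08, SE 0.09, 95% interval -0.28 to 0.12).

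Hadha and Hadhb, which share the interval printed above, had estimates of opposite sign, each with a 95% interval that included 0. Hadha was at 34.4, 32.7, 41.3 and 34.7 CPM in controls and 34.7, 32.8, 38.0, 32.9 and 34.9 CPM in mutants, with a log2 fold change of -0.05 (SE 0.09). Hadhb was at 65.6, 65.5, 58.3 and 70.1 CPM in controls and 68.3, 74.4, 78.1, 73.7 and 57.3 CPM in mutants, with 0.12 (SE 0.10). For Hadhb, 3 mutants exceeded every control and mutant 12 was below every control. Both signs depended on the library: the first libraries alone gave 0.07 for Hadha and -0.12 for Hadhb, and the second libraries -0.16 and 0.31. The difference between the subunits was not tested.

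Acaa2 encodes a mitochondrial thiolase, an enzyme that releases acetyl-CoA at the end of a round, and ETFDH passes the electrons on to ubiquinone. Acaa2 was at 74.4, 74.3, 83.6 and 68.5 CPM in controls. In mutants it was at 81.3, 62.8, 99.98, 97.8 and 68.1 CPM, a wider spread, with 2 mutants above and 2 below every control (log2 fold change 0.13, SE 0.14). Etfdh was at 22.8, 19.0, 19.3 and 23.3 CPM in controls and 22.9, 29.5, 22.6, 20.49 and 27.9 CPM in mutants. Mutants 7 and 12 were above every control, and the log2 fold change was 0.23 (SE 0.13, 95% interval -0.05 to 0.50, edgeR adjusted p = 0.574).

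**Figure D3:**
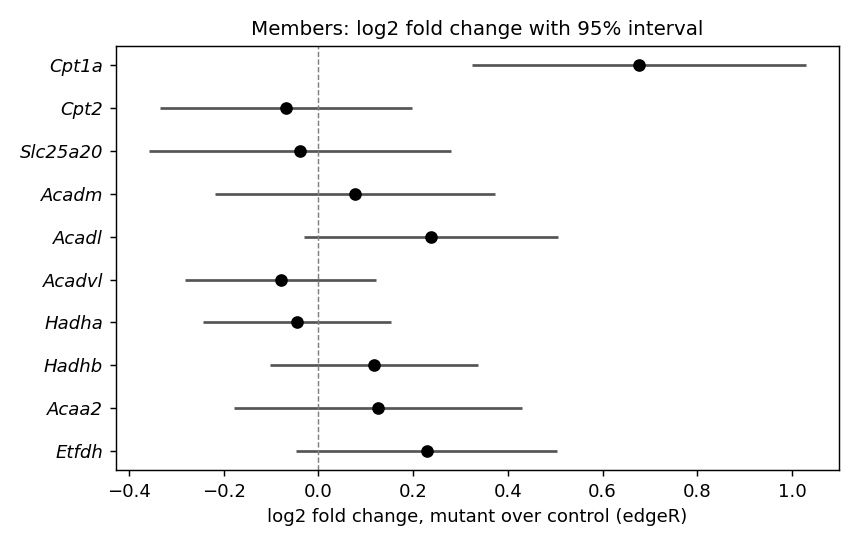
Log2 fold change of each member, mutant over control, from edgeR (points) with its 95% interval (lines). The interval of Cpt1a runs from 0.32 to 1.03, and those of the other 9 members include 0.

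Of the 10 members, 6 had a log2 fold change above 0 and 4 below, with a median of 0.10, where 51.7% of all tested genes were above 0 with a median of 0.01. Leaving out Cpt1a, 5 of 9 were above 0 and the median was 0.08, with values from -0.08 to 0.24. The groups of mice failed to overlap for 0 of the 10 members, where 1.87% of all tested genes had every mutant above every control and 2.13% every mutant below. The edgeR adjusted p-values of the 9 lay between 0.545 and 0.948. Summed over these 9 genes, the level was 350.1 ± 11.5 CPM in controls and 372 ± 15.3 CPM in mutants (SD, n = 4 and 5). With depth in the model the median over the 10 was 0.0296.

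The members did not move together as 1 set from mouse to mouse, and some pairs were strongly related in either direction. After centring within each group, the Pearson r of log2 CPM over the 9 mice had a median of -0.11 over the 45 pairs, which share libraries and depth, and 22 pairs were above 0. Acadm and Etfdh had an r of 0.83 and Cpt2 and Acaa2 0.82, whereas Acaa2 and Etfdh had -0.88. Mutant 7 was the highest mouse for Acadm, Acadl and Etfdh and the lowest for Cpt2, Acadvl and Acaa2. The weight of mutant 7 in these r values was not tested. Centred in the same way, Cpt1a had an r of 0.58 with Cpt2, 0.57 with Hadhb and -0.61 with Etfdh.

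The genes most like Cpt1a by Pearson r of log2 CPM over the 9 mice were none of these. Among the 7130 tested genes with a mean of at least 10 CPM that are no predicted genes or pseudogenes they were Vps26c (r = 0.97, and 0.93 centred within group), a retromer-like sorting subunit, Oas1g (0.94 and 0.85), an interferon-induced gene of the oligoadenylate synthetase family, Mpdu1 (0.92 and 0.72), needed for the use of dolichol-linked mannose, Babam2 (0.89 and 0.68), a subunit of BRCA1 and BRISC complexes, and Incenp (0.89 and 0.60), of the chromosomal passenger complex. Oas1g was at 5.86 to 15.2 CPM in controls and 13.6 to 23.3 CPM in mutants, with a log2 fold change of 0.83 (SE 0.24, edgeR adjusted p = 0.307). These r values are the highest of 7130, all over the same libraries, and describe likeness only. Genes were ranked by r over both groups together, so those chosen tend to differ between the groups as Cpt1a did. The difference of Oas1g is therefore no separate result.

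Other genes of fatty acid metabolism, listed by role, held no gene past the threshold in edgeR: 0 of 109 tested genes, and 0 in DESeq2. At an unadjusted p under 0.05, 5 were higher (4.96% of all genes were) and 6 were lower (4.89%). Their median log2 fold change was -0.005, and 52 of 109 were above 0. Of the 8 lists below, only the medians of carnitine supply and of the other matrix enzymes kept their sign under every alternative tried.

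Among genes of carnitine supply, 2 of 6 tested were above 0. Slc22a4, the ergothioneine and carnitine transporter OCTN1, was at 26.1 to 33.1 CPM in controls and 16.9 to 25.2 CPM in mutants, so that all 5 mutants were below every control (log2 fold change -0.45, SE 0.13, edgeR adjusted p = 0.307). Crat, the carnitine acetyltransferase, was at -0.20 (SE 0.12). Of genes of fatty acid uptake and activation, 11 of 19 were tested and 5 were above 0. The fatty acid receptor gene Cd36 had no counts in any mouse. Dbi, the acyl-CoA binding protein, had 0.37 (SE 0.21), with mutants at 109 to 269 CPM on both sides of the controls at 149 to 195 CPM, and Acss1, the mitochondrial acetyl-CoA synthetase, had -0.34 (SE 0.22).

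Of the other matrix enzymes, 15 of 26 tested were above 0, with a median of 0.08, and 3 had an unadjusted p under 0.05, all higher in mutants. The smallest p-values were those of Pcca and Pccb, the subunits of propionyl-CoA carboxylase, which handles the remains of odd-chain fatty acids and some amino acids. Pcca was at 11.6 to 16.3 CPM in controls and 15.4 to 17.8 CPM in mutants (0.37, SE 0.12), and Pccb at 19.7 to 22.7 and 22.7 to 27.1 CPM (0.25, SE 0.09), with edgeR adjusted p-values of 0.363 and 0.388. In peroxisomes, where very long and branched chains are shortened, 11 of 18 were above 0. The thiolase gene Acaa1a had -0.20 (SE 0.08) and Hacl1, of alpha-oxidation, 0.48 (SE 0.20).

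The genes that set malonyl-CoA, the inhibitor of CPT1, were 8 of 14 above 0, with a median of 0.02. Prkag1, the main gamma subunit of AMPK in many tissues, was at 53.9 to 63.1 CPM in controls and 62.5 to 79.9 CPM in mutants (0.29, SE 0.09, edgeR adjusted p = 0.344), and the beta subunit gene Prkab2 was at -0.57 (SE 0.26). Acaca, the cytosolic acetyl-CoA carboxylase, had means of 12.3 CPM in controls and 11.1 CPM in mutants. Acacb, the other acetyl-CoA carboxylase gene, had 1.54 and 1.73 CPM, and Mlycd, which degrades malonyl-CoA, 33.4 and 35.5 CPM. Acaca, Acacb, Mlycd and the receptors named next were chosen for their role, outside the rule for naming.

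Of nuclear receptors and coactivators, 3 of 13 tested were above 0, with a median log2 fold change of -0.17, or 0.0005 with the total count in the model. Ppara and Ppargc1a, which drive fatty acid oxidation genes in liver and muscle, were at or near 0 in every mouse, and Ppard, the PPAR of most other cells, was at 4.74 to 7.66 CPM in controls and 4.01 to 7.27 CPM in mutants. The corepressor gene Ncor1 had a log2 fold change of -0.18 (SE 0.09). Other PPAR target genes were 4 of 9 above 0, and Pdk4, a widely used target, had no more than 0.0593 CPM in any mouse. Creb3l3 was at 22.1 to 28.3 CPM in controls and 17.1 to 20.2 CPM in mutants, without overlap (-0.40, SE 0.10, edgeR adjusted p = 0.254), and the pyruvate dehydrogenase kinase gene Pdk2 had -0.95 (SE 0.36) at a level of 0.415 to 2.07 CPM over all mice.

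Of lipid droplet and lipolysis genes, 5 of 13 tested were above 0. Mgll, the monoacylglycerol lipase, was at 16.1 to 16.7 CPM in controls and 9.90 to 13.4 CPM in mutants, without overlap (-0.45, SE 0.11, edgeR adjusted p = 0.242). It passed in 1 alternative, with 18 libraries, the mouse as a random effect and a technical replicate block (limma adjusted p = 0.0476). Pnpla2, the adipose triglyceride lipase, had 0.16 (SE 0.08). Of the 109 genes of all these lists, 3 had groups that did not overlap (Slc22a4, Creb3l3 and Mgll, each lower in mutants), where 2.13% of all tested genes did so in that direction.

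**Figure D4:**
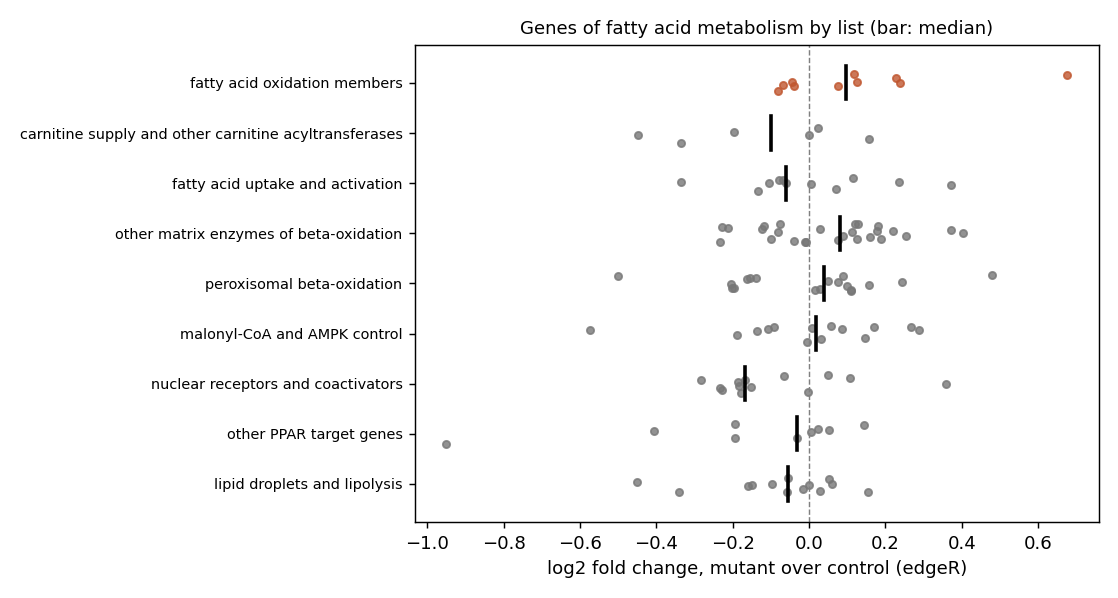
Log2 fold change (edgeR, mutant over control) of each tested gene in the lists of fatty acid metabolism, with the members in orange and a black bar at each median. Cpt1a, at 0.68, is the highest point of all the lists, and the medians lie between -0.17 and 0.10.

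The direction of Cpt1a was the same under each alternative tried, from 0.56 with depth in the model to 0.83 without control 2. Whether it passed depended on the test: of the alternatives at the threshold of 0.05, it passed in DESeq2 only. With all 18 libraries and the mouse as a random effect the adjusted p was 0.0646 in limma.

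**Figure D5:**
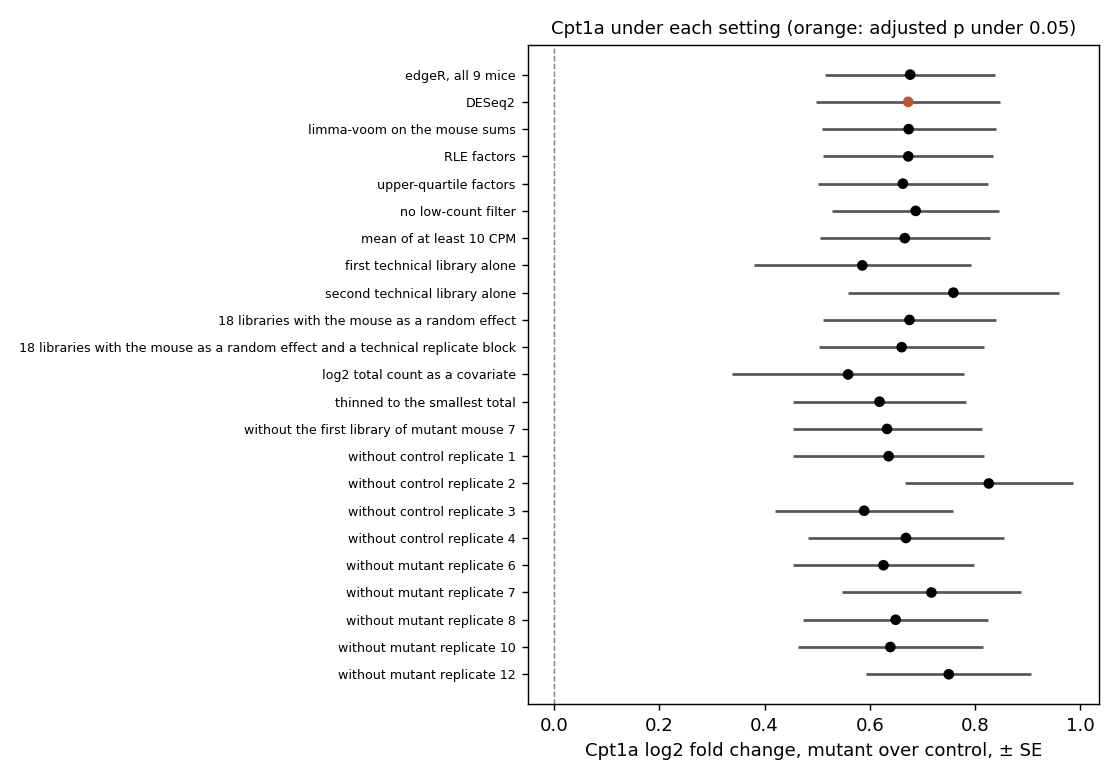
Log2 fold change of Cpt1a, mutant over control, with its SE, under each setting. Values lie between 0.56 and 0.83, and DESeq2 (orange) is the one setting with an adjusted p under 0.05.

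On GRCm38, Cpt1a (ENSMUSG00000024900) lies on chromosome 19, 3322334 to 3385733, plus strand, and overlaps no other annotated gene, as do Cpt2 (4, 107903981 to 107923610), Slc25a20 (9, 108662088 to 108684641), Acadm (3, 153922357 to 153944632) and Acaa2 (18, 74779197 to 74806208). Acadl (1, 66830839 to 66863277) overlaps a processed pseudogene on its own strand, Hadha (5, 30118304 to 30155162) overlaps Garem2 on the opposite strand, Hadhb (5, 30155248 to 30184593) overlaps a miRNA gene, Etfdh (3, 79603788 to 79629500) overlaps Gm37973 on its own strand and 4930579G24Rik on the opposite strand, and Acadvl (11, 70010183 to 70015411) overlaps Dvl2 on the opposite strand. Of the other genes named by the rule, Crat (with Dolpp1), Pcca (Ggact), Acaa1a (Slc22a14 and Myd88), Hacl1 (Btd), Prkab2 (Gm17651), Ncor1 (Ttc19 and Pigl) and Mpdu1 (Sox15) overlap protein-coding genes on the opposite strand, and Hacl1 overlaps Gm49387 on its own. Since the strand setting of the counting is not known, the counts of all these overlapping genes are uncertain, as are those of genes that overlap antisense or other noncoding genes, Acss1, Prkag1, Pdk2, Mgll, Vps26c, Babam2 and Incenp.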

How the data were processed

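The authors deposited estimated counts per gene for 18 libraries, made by MARS-seq adapted to bulk RNA and sequenced on an Illumina NextSeq, as the labels' protocols say (per the labels). Salmon 1.3, bcl2fastq, FastQC and the build GRCm38 appear in the submitters' processing notes, which give no order. Strand setting, molecular identifiers and annotation release are not stated by any label. The first 18 characters of each ID were matched to GENCODE mouse release 21, which named 54094 of 54347 IDs.

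The counts of each mouse's 2 libraries were added, then rounded to whole numbers. The test was that of edgeR 4.0.16, under R 4.3.3 (filterByExpr, minimum count 10, TMM, quasi-likelihood F-test, 9 mice, no covariate) with Benjamini-Hochberg adjustment over 12973 genes and a threshold of 0.05. CPM use TMM factors. The SE is the log2 fold change over the root of its F value. Alternatives used DESeq2 1.42.0, limma 3.58.1, other factors, filters, libraries, thinning, a depth covariate and leaving out each mouse. DESeq2 gave 1011 genes no adjusted p. Simulated counts with known changes were run through the test, and the only condition set was on the sign of the changes. The share of changes recovered is not given here, so the check says nothing of power. Without the TMM factors, a level of 3 counts was 0.255 CPM in the shallowest mouse and 0.118 in the deepest, for counting error only. The mouse numbers pair nothing across groups.

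Named genes were all members, the 2 genes of smallest p in each other list, and the 5 genes most like Cpt1a among tested genes with a mean of at least 10 CPM, predicted genes and pseudogenes left out. Of these, 1 gene is not reported here. Marker genes were named where they led a list or were near 0, and Kit, Hoxa9, Myb, Car2 and Itga2b after their values were seen. The members and lists were chosen with earlier results of these data known.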

Additional observations from a re-analysis of the deposited data

Results flagged for a closer look

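In groups of 4 or 5 mice, a mouse was picked out where its gap to the nearest other mouse took up most of the range of its group. Of 66 groups looked at, 3 had such a mouse, where chance gives about 1 in 20. Cpt2 was at 23.8 CPM in control 1, with the other controls at 27.1 to 27.8 CPM. Babam2 was at 66.7 CPM in mutant 12, with the other mutants at 72.1 to 73.0 CPM. Mutant 12 was also the lowest mutant for Cpt1a, but Babam2 was named for its likeness to Cpt1a over these mice, so this is no separate observation. Incenp was at 133 CPM in mutant 7, with the other mutants at 137 to 139 CPM.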

How the results depend on the processing

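Of the alternatives, only DESeq2 changed a call of a member: it called 1 member, Cpt1a (log2 fold change 0.67), and 93 genes against 9 in edgeR. The number of genes called was 21 with no low-count filter, 0 with a mean of at least 10 CPM, 0 in the first technical libraries, 3 in the second, 62 with 18 libraries and the mouse as a random effect, 60 with a technical replicate block added, 0 with the total count as a covariate, 2 after thinning, and 0 without the first library of mutant 7. Leaving out a mouse gave 0 to 7 genes called (7 without mutant 6, 4 without control 2, 2 without control 1, and 0 without any other mouse) and 0 members, with Cpt1a between 0.59 and 0.83 and the median of the members between 0.05 and 0.12. With the covariate that median was 0.0296.

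Signs changed for 7 genes, each with an edgeR 95% interval that included 0 and no alternative in which it passed. In the first libraries the log2 fold change of Cpt2 was 0.0072, of Hadha 0.0699 and of Hadhb -0.12. That of Slc25a20 was 0.0370 in the second libraries and 0.0207 after thinning. With the covariate Acadvl was at 0.000758, Hadhb at -0.0363 and Dbi at -0.11. Without the first library of mutant 7, Acadm was at -0.0297. Leaving out a mouse gave -0.17 to 0.0265 for Slc25a20 (above 0 without control 1 or control 4), -0.0325 to 0.15 for Acadm (below 0 without mutant 7) and -0.0874 to 0.0313 for Hadha (above 0 without control 3). No other member or named gene changed sign. Depth limits these statements: Cpt1a had 30 to 229 counts per library.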
